A study of Mus musculus with 6 samples.

Results

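Nerve and glial transcripts were read in whole mouse hearts through 27 genes, chosen by name as markers of autonomic neurons (20 genes), of Schwann cells and the neural crest (6 genes) and, in Sema3a, of axon guidance. All 27 were among the 18193 genes with a probe set annotated to a single symbol, through 53 probe sets. The arrays came from 3 wild-type and 3 FOG-2 R3K5A embryos, which were siblings bred by crossing heterozygotes whose strain was a mix of C57/B6 and 129 S6, and the hearts were taken at embryonic day 16.5, with no treatment named. The mutants (as they are called from here on) carry substitutions in FOG-2, the GATA cofactor encoded by Zfpm2, that abolish its known contact with the NuRD chromatin complex. The labels do not give the zygosity of the mutants, the sex of the embryos or the number of hearts behind a replicate, and the allele is named without any restriction to a cell type.

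The heart is supplied by nerves of neural crest origin. Sympathetic neurons have their cell bodies in ganglia outside the heart and send only axons into it, whereas parasympathetic neurons sit in ganglia on the heart itself. Schwann cell precursors and other crest-derived glia travel along these axons. Myocardial Sema3a repels sympathetic axons, while nerve growth factor attracts and maintains them.

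In these hearts 0 of the 9 members bright enough to test differed between genotypes after adjustment over all genes, where 1.76% of the 11113 genes tested did (1.39% higher and 0.369% lower in mutants). The test was limma's, and at an unadjusted p under 0.05 it found 3 of the 9 and 14.7% of all tested genes. Tested genes were those whose mean over the 6 arrays lay above the median of all probe sets, 6.30 log2 units of intensity. Uchl1 came nearest, higher in mutants by 0.61 log2 units (adjusted p = 0.0619), followed by Sema3a at 0.52 and Gap43 at 0.35. Most neuronal genes were too dim to test: 16 of 20 autonomic neuron members and 2 of 6 Schwann and crest members lay below that filter. Among these were Phox2a, Th and Chat, which define autonomic neurons, so the genes tested under the neuron label were Dbh, Ddc, Gap43 and Uchl1. Whether the signal of these genes came from neurons was not tested. Sox10, Erbb3, Fabp7 and Ngfr carried the glial label. In whole hearts, fewer cells of a type and less RNA per cell cannot be told apart.

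The arrays were on a common scale, with median intensities of 77.4 to 84.1. Over the tested genes the wild-type arrays correlated at 0.982 to 0.986 among themselves. They differed in how close they lay to the mutants, at 0.984 to 0.990 for wild-type replicate 1, 0.972 to 0.980 for replicate 2 and 0.980 to 0.983 for replicate 3. The number of called genes was 196 with all arrays, 451 (4.06%) without wild-type replicate 1 and 37 to 92 without any other array. On several members wild-type replicate 1 read nearer to the mutants than to its own group, so results that rest on single wild-type arrays are given with and without them. The 3 mutant arrays correlated at 0.990 to 0.995 with each other. The labels call the samples biological replicates. Each p-value sets the genotype difference against the spread between replicates of a genotype, which limma moderates over all genes.

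The promoters of Uchl1, Sema3a and Ddc are shown because these genes, together with Gap43, were the members called when wild-type replicate 1 was left out, and because FOG-2 acts through GATA factors. Each line gives the 250 bases before an annotated start, 5′ to 3′ along the gene, from RefSeq on GRCm38.p6, and capitals mark a GATA motif. Ddc has a pair of annotated starts, and its first window lies inside the span of the gene. The Sema3a window likewise lies inside the span of its gene, chr5:13124822-13603485. It precedes an internal start, not the 5′ end of the gene.
Uchl1, chr5:66675871-66676120, plus strand: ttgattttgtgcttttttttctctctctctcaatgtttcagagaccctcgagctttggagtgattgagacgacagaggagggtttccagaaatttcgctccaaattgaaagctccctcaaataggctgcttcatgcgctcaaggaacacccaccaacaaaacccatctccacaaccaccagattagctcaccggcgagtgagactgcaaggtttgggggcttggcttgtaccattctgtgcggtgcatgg
Sema3a, chr5:13396534-13396783, plus strand: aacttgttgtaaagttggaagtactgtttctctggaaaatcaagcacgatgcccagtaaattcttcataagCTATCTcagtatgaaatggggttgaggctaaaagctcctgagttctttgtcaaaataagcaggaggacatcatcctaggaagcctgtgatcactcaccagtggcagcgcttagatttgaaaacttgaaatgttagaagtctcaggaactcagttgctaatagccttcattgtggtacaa
Ddc, first window, chr11:11890409-11890658, minus strand: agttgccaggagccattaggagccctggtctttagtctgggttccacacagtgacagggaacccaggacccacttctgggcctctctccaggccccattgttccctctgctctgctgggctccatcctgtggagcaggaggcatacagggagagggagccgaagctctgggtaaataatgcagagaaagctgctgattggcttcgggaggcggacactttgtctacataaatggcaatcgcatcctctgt
Ddc, second window, chr11:11898145-11898394, minus strand: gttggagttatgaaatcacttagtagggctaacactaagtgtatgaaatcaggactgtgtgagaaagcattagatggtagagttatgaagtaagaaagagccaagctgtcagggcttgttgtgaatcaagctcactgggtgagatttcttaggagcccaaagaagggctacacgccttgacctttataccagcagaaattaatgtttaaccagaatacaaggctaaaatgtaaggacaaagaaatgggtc

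The motif searched was AGATAA or AGATAG, and likewise TGATAA or TGATAG, on either strand. It was found once in the Sema3a window and in 0 of the Uchl1 and Ddc windows. The table held promoters for 19 of the 27 members, with 24 starts, of which 5 (20.8%) had a match, in Foxd3, Sema3a, Stmn3 and Syt1. Of all 32851 promoter windows of this length 26.5% had one. A match describes the letters and is no evidence of binding.

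The tested autonomic neuron genes were the catecholamine enzymes Dbh and Ddc, the growth cone protein Gap43 and Uchl1. Uchl1 encodes a ubiquitin hydrolase abundant in neurons and neuroendocrine cells. Its mean over all arrays was 9.34 log2 units. The main probe sets of the neuronal genes Tubb3, Snap25, Prph, Stmn2 and Elavl4 had means of 0.44 to 5.99, below the filter. Whether the Uchl1 signal came from neurons was not tested. Uchl1 read 9.33, 8.94 and 8.84 log2 units in wild-type replicates 1, 2 and 3, and 9.74, 9.72 and 9.49 in mutant replicates 1, 2 and 3. All 3 mutants lay above all 3 wild types, by a gap smaller than the spread within wild type, since wild-type replicate 1 was the highest of its group. Wild type averaged 9.04 ± 0.26 (SD, n = 3) and mutants averaged 9.65 ± 0.14 (SD, n = 3), which gave a difference of 0.61 (SE 0.13, 1.53-fold, adjusted p = 0.0619 by limma). Without wild-type replicate 1 it was 0.76 (adjusted p = 0.0129), against 0.52 when wild-type replicate 3 was left out (adjusted p = 0.176).

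Gap43, carried by growing axons and also by Schwann cell precursors, read 7.74, 7.25 and 7.23 in wild type and 7.76 on each mutant array. Wild-type replicate 1 was thus almost level with the mutants, and the genotypes were separate only by that narrow margin. The difference was 0.35 (SE 0.15, 1.28-fold, adjusted p = 0.309), with 0.52 without wild-type replicate 1 (adjusted p = 0.0365) and 0.26 without wild-type replicate 3 (adjusted p = 0.498). Uchl1 and Gap43 were the 2 of 9 tested members whose genotypes did not overlap, both higher in mutants. Over all tested genes 21.2% did not overlap (11.5% were higher and 9.76% lower in mutants), so the members' share is near the background.

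Ddc encodes aromatic amino acid decarboxylase, which makes dopamine from L-DOPA. It is also known as an imprinted gene transcribed in the embryonic myocardium, so its level here need not come from nerves. Its main probe set read 10.54, 11.08 and 11.16 in wild type and 10.68, 10.70 and 10.83 in mutants. The mutants lay below wild-type replicates 2 and 3 and above replicate 1. The difference was -0.19 (SE 0.14, adjusted p = 0.575), with -0.38 without wild-type replicate 1 (adjusted p = 0.0348). It was -0.11 without wild-type replicate 2 (adjusted p = 0.820) and -0.07 without wild-type replicate 3 (adjusted p = 0.864). On a second probe set wild-type replicate 1 was again the lowest array and replicates 2 and 3 the highest, at 5.83, 7.46 and 7.33 in wild type and 6.51, 6.22 and 6.45 in mutants, with a difference of -0.48 (SE 0.37, adjusted p = 0.591 over the 19762 probe sets tested, of which 1.1% were called).

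Dbh, which converts dopamine to noradrenaline, was close to the filter. It read 6.00, 6.29 and 6.66 in wild type and 6.16, 6.32 and 6.46 in mutants, and only 3 of 6 values were above the filter. The genotype means were 6.32 ± 0.33 and 6.31 ± 0.15 (adjusted p = 0.996). Its other probe sets, both below the filter, differed by -0.51 and -0.21, so both read lower in mutants while the main one was level. All 3 lay near or below the filter, and why their answers were unequal was not tested. Over the 4 tested neuronal members the median difference was 0.17, with 2 positive and 2 negative, beside a median of -0.01 over all tested genes. All 4 had both genotype means above the filter, and they do not stand for the 20. The share of neurons in the signal of these 4 genes, and so in their median, was not tested.

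**Figure D1:**
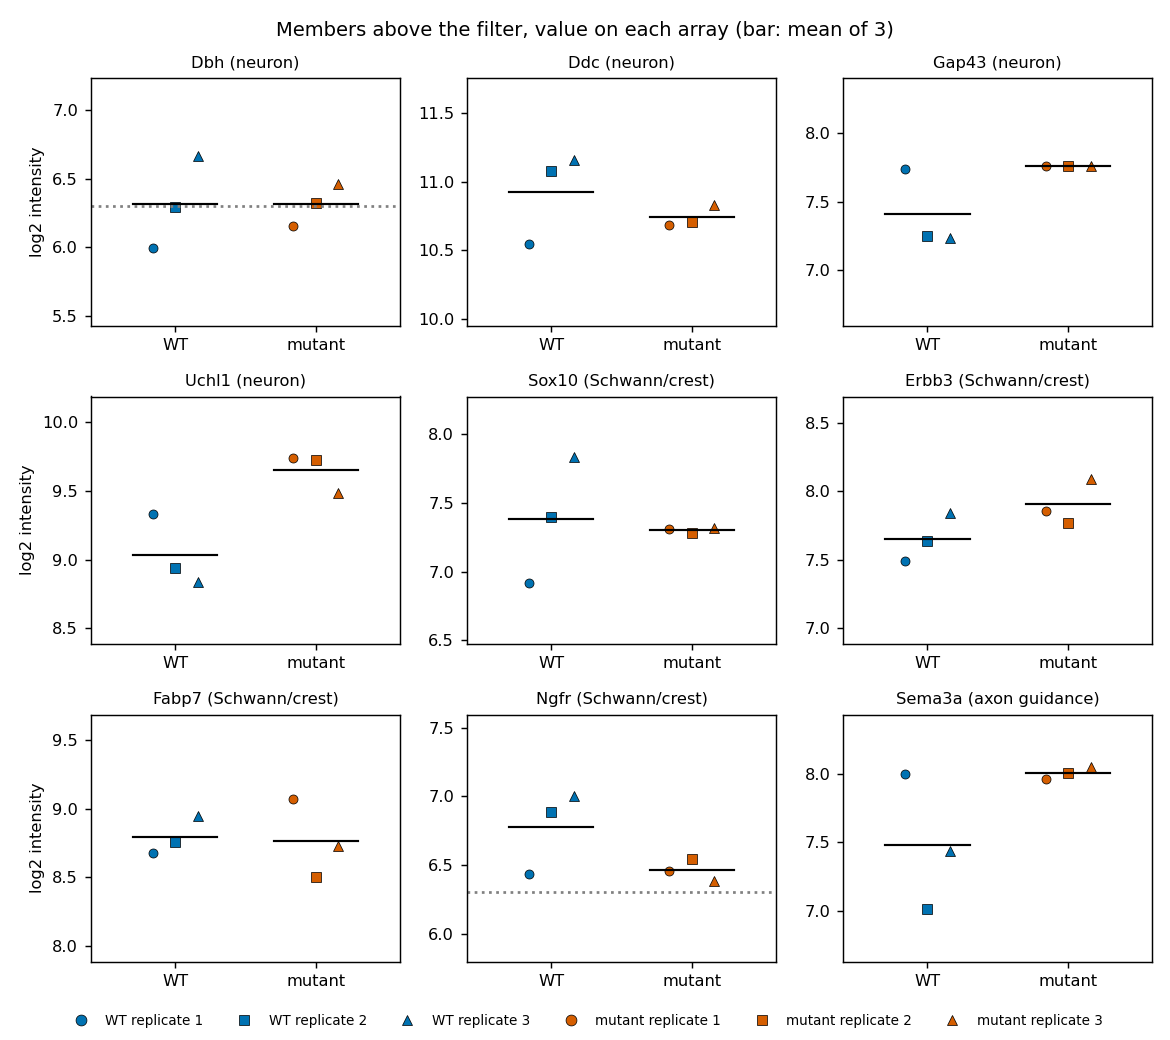
Value on each array (points, log2 intensity) of the 9 members above the filter, with the mean of 3 arrays as a bar and the filter as a dotted line where it falls in range. Each panel spans the same number of log2 units; Uchl1 and Gap43 are the panels in which all mutants lie above all wild types, and wild-type replicate 1 (blue circle) reads like the mutants for Ddc, Gap43, Ngfr and Sema3a.

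Of the glial and crest genes, Sox10, the transcription factor required for all peripheral glia, read 6.92, 7.40 and 7.84 in wild type and 7.31, 7.28 and 7.32 in mutants. The mutant values fell inside the wild-type range. The difference was -0.08 (SE 0.20, adjusted p = 0.886), or -0.31 without wild-type replicate 1 and 0.15 without wild-type replicate 3, so these arrays fix no direction for it. Its other probe sets were below the filter.

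Erbb3, the neuregulin receptor by which axons sustain Schwann cells, is also found in the mesenchyme of the endocardial cushions. It read 7.49, 7.64 and 7.84 in wild type and 7.86, 7.77 and 8.09 in mutants. Mutant replicate 2 lay below wild-type replicate 3, so the groups overlapped. The difference was 0.25 (SE 0.13, adjusted p = 0.411). Fabp7, the brain-type fatty acid binding protein of glial precursors, read 8.68, 8.76 and 8.94 against 9.07, 8.50 and 8.73 in mutants. The mutants held both the highest and the lowest value, with a difference of -0.03 (SE 0.14, adjusted p = 0.948).

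Ngfr, the low-affinity neurotrophin receptor p75 of crest cells, glia and sympathetic neurons, read 6.43, 6.89 and 7.01 in wild type and 6.46, 6.55 and 6.39 in mutants. Wild-type replicate 1 again read like the mutants, below the other wild types. The difference was -0.31 (SE 0.17, adjusted p = 0.431), with -0.48 without that array (adjusted p = 0.0889) and -0.20 without wild-type replicate 3 (adjusted p = 0.643). Its other probe sets, below the filter, had differences of -0.10 and -0.46. The median over the 4 tested glial and crest members was -0.05, with 1 positive and 3 negative, and 0 of them had genotypes that did not overlap.

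Sema3a, a secreted repellent of sympathetic axons made by heart tissue, is the 1 member listed for axon guidance. Its main probe set read 7.99, 7.01 and 7.44 in wild type and 7.96, 8.01 and 8.05 in mutants. Wild-type replicate 1 lay among the mutants, and wild-type replicates 2 and 3 lay below all of them. The difference was 0.52 (SE 0.21, 1.44-fold, adjusted p = 0.290), with 0.78 without wild-type replicate 1 (adjusted p = 0.0280) and 0.29 without wild-type replicate 2 (adjusted p = 0.512). A second probe set above the filter read 7.70, 6.51 and 7.15 against 7.73, 7.89 and 8.05, a difference of 0.77 (SE 0.26, adjusted p = 0.228 over the probe sets tested). The last probe set, below the filter, differed by 0.47. All 3 probe sets therefore had positive differences, and on each of them wild-type replicate 1 was the highest wild type.

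**Figure D2:**
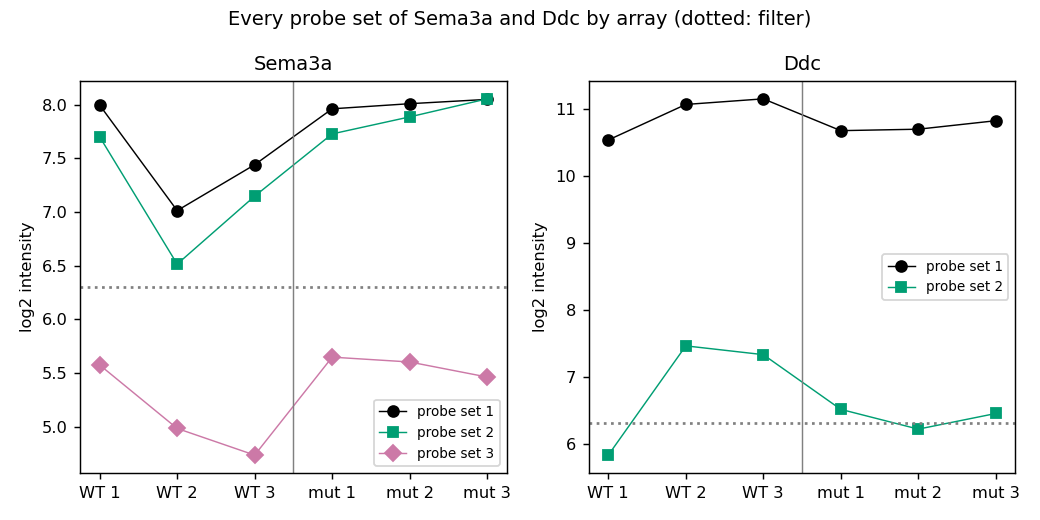
Every probe set of Sema3a (3) and Ddc (2) by array, in log2 intensity, with the filter as a dotted line and genotypes parted by a vertical line. Wild-type replicate 1 is the highest wild type on all 3 Sema3a probe sets and the lowest on both Ddc probe sets.

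The 3 of 9 tested members at an unadjusted p under 0.05 were Uchl1, Gap43 and Sema3a, where 14.7% of all tested genes did. Of the 9, 4 had positive differences, as did 47.2% of all tested genes. Without wild-type replicate 1 the adjusted test called 4 of 9, with Gap43, Uchl1 and Sema3a higher and Ddc lower, against 4.06% of all genes. On each of these 4 genes that array was the wild type nearest the mutants. Leaving it out therefore had to enlarge their differences, and the calls are no independent support for them. Leaving out any other array gave 0 called members. With all 6 arrays, Uchl1 alone was called in 3 of the other settings tried (quantile normalization, array quality weights and the replicate block). The calls of Gap43, Sema3a and Ddc were made only without wild-type replicate 1, among the settings tried. Which wild-type arrays better represent the genotype was not tested.

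**Figure D3:**
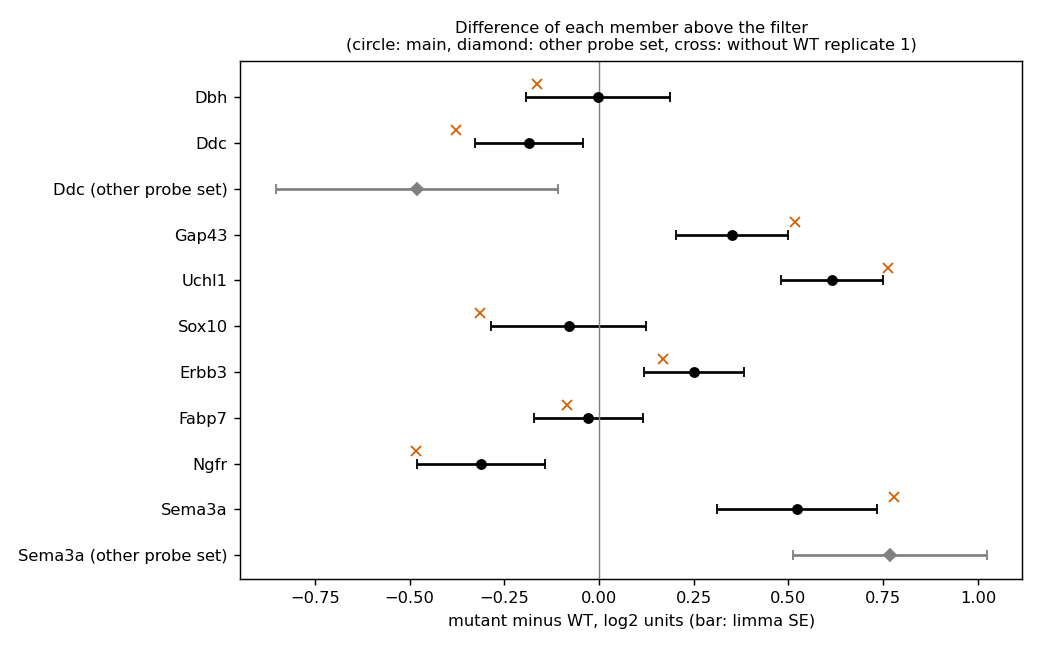
Mutant minus wild type in log2 units for each member above the filter (circles, with limma's SE as bars), for the other Ddc and Sema3a probe sets above it (diamonds) and without wild-type replicate 1 (crosses). Circles run from -0.31 for Ngfr to 0.61 for Uchl1, and without that array the range widens to -0.48 and 0.78.

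The 18 members below the filter ran from 0.00 to 6.14 log2 units, and 0 of them exceeded the filter on any array. Their differences, from -0.50 for Chgb to 0.75 for Tubb3 and Snap25, are given as a description. Phox2a, the homeodomain factor of noradrenergic identity, read 4.48, 4.36 and 4.78 in wild type and 4.33, 3.53 and 4.32 in mutants. Th, the rate-limiting enzyme of catecholamine synthesis, read 5.60, 5.86 and 5.87 against 5.13, 5.69 and 5.76. Chat, which makes acetylcholine in parasympathetic neurons, read 5.25, 5.58 and 5.66 against 5.17, 5.12 and 5.43. The differences were -0.48 for Phox2a, -0.25 for Th and -0.26 for Chat, but no detection call was used, so such dim values cannot be told from background.

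Foxd3, a factor of early crest cells, read 3.39, 2.68 and 2.46 in wild type and 3.90, 3.87 and 2.39 in mutants, with overlap. The calcium-binding glial protein S100b read 5.81, 5.12 and 5.74 against 5.85, 6.10 and 5.86. On its second probe set the difference was 0.23 and the genotypes overlapped. Stmn2, a microtubule regulator of growing neurons, had differences of 0.40 and 0.34 on its 2 probe sets. Phox2a, S100b and Stmn2 were the 3 of 18 main probe sets without overlap, the first lower and the others higher in mutants, where 12.6% of the 7080 genes below the filter had none.

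The remaining genes of this class code for the neuronal tubulin Tubb3, the intermediate filament proteins Prph, Nefl and Nefm, the RNA-binding proteins Elavl3 and Elavl4, the granins Chga and Chgb, the GDNF receptor Ret, the stathmin Stmn3 and the synaptic proteins Snap25 and Syt1. Tubb3 was at the intensity floor of 1 on 4 arrays and read 2.45 only on mutant replicate 1. Where a gene had several probe sets they often disagreed, as in Ret (-0.05 and 1.94), Stmn3 (-0.26 and 0.79) and Snap25 (0.75 and -0.09). In a fit without the filter 0 of these 18 genes reached an unadjusted p under 0.05, and 0 of all 27 members were called, where 0.445% of 18193 genes were. That says nothing about changes too small for such dim probe sets.

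**Figure D4:**
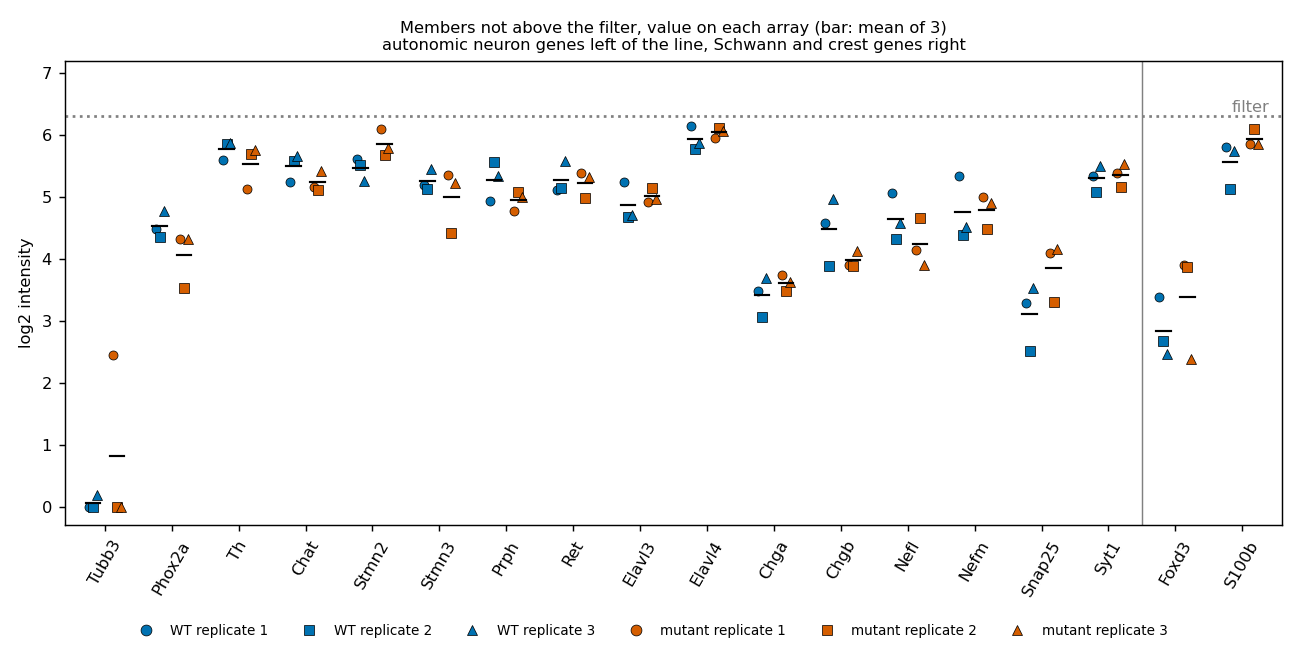
Value on each array (points, log2 intensity, bar for the mean of 3) of the 18 members not above the filter, which is the dotted line at 6.30. Every point lies under the line, and the genotypes overlap for all but Phox2a, Stmn2 and S100b.

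Further genes listed for the same cell types also gave 0 calls. Of 26 other autonomic neuron genes measured, 10 were above the filter and 0 were called, with a median difference of -0.09. Of the 10, 2 had an unadjusted p under 0.05, where 14.7% of all tested genes did. Rtn1, a neuronal reticulon, had 0.58 (SE 0.19, adjusted p = 0.201). Slc18a2, the vesicular monoamine transporter, had 0.41 (SE 0.15, adjusted p = 0.260). Of the 10, 4 had positive and 6 had negative differences. The noradrenaline transporter Slc6a2 and the cholinergic genes Slc18a3 and Slc5a7, named after their values were seen, were below the filter. Whether the signal of the genes on this list came from neurons was not tested.

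Of 20 other Schwann and crest genes measured, 11 were tested, of which 0 were called and 4 had an unadjusted p under 0.05, where 14.7% of all tested genes did. Mal, a myelin and lymphocyte protein also made by epithelia, read 6.70, 5.77 and 6.41 in wild type and 7.61, 7.23 and 7.32 in mutants. All mutants lay above all wild types, the wild-type mean was just under the filter, and the difference was 1.09 (SE 0.23, adjusted p = 0.0514). Egr2, a myelination factor that is also an immediate early gene, read 5.99, 5.72 and 6.35 in wild type, with a mean under the filter, and 6.76, 6.85 and 6.89 in mutants. Its difference was 0.81 (SE 0.18, adjusted p = 0.0605). Mal and Egr2 thus entered the test only through the mutant group. Ednrb, the endothelin receptor of crest cells, which heart cells of other types also carry, read 11.51, 11.14 and 11.19 against 11.59, 11.73 and 11.73, a difference of 0.40 (SE 0.10, adjusted p = 0.0798) with no overlap. Fabp5 had 0.12, the myelin gene Mbp 0.06 and the crest factor Pax3 -0.13. These 4 were named after their values were seen. Several genes of this list, such as Postn, Cdh2 and Ncam1, are known in other heart cells, so the list is not specific to glia. Its 11 tested genes had a median difference of 0.07.

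Of 24 other neurotrophic and guidance genes measured, 18 were tested and 0 were called, while 8 had an unadjusted p under 0.05, where 14.7% of all tested genes did. Sema3c, the semaphorin that attracts crest cells to the outflow tract, read 8.88, 8.87 and 8.83 in wild type and 9.38, 9.10 and 9.39 in mutants. The groups were separate, with a difference of 0.43 (SE 0.10, adjusted p = 0.0723). Cxcl12, a chemokine for crest cells and vessels, had 0.29 (SE 0.09, adjusted p = 0.162). Of the other secreted repellents and attractants, singled out after their values were seen, Sema3b had 0.74, Sema3d 0.34, Slit3 0.46 and Slit2 0.42, and the receptors Nrp2 and Robo1 had -0.31 and -0.22. Chosen in the same way, Sema3f was at 0.01 and the receptor Nrp1 at -0.10. The median over the 18 was 0.01.

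**Figure D5:**
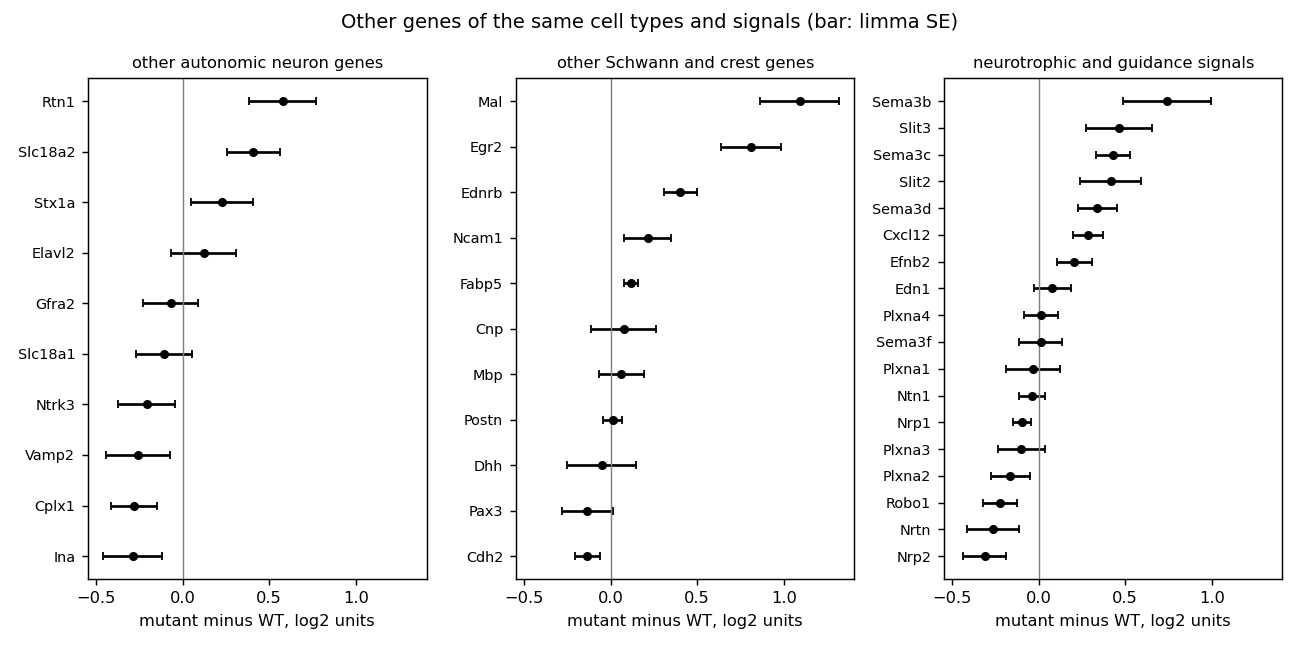
Mutant minus wild type (log2 units, bars for limma's SE) of the tested genes in the 3 lists of further neuronal, glial and guidance genes. Mal at 1.09 and Egr2 at 0.81 lie farthest right, both with wild-type means under the filter, so that they were tested through their mutant values, and 0 of the genes shown passed the adjusted test.

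Markers of other cell types and tissues were read on the same arrays. Of 13 epicardial markers 7 were called higher in mutants, where 1.39% of all tested genes were, with Krt18 at 1.54 (adjusted p = 0.000721). These markers were listed with earlier results of these data known, so their share of calls is a description and no independent support. Of the 13, 3 had negative differences, Wt1 at -0.06, Tbx18 at -0.11 and Tcf21 at -0.09. Muc16, which was among the 7, had a wild-type mean of 5.85, under the filter, and was tested only through its mutant values. The summed intensity of the 13 was 7065 to 7441 in wild type and 9080 to 9874 in mutants. Of 10 lung and neuroendocrine markers measured, 4 were tested and 0 were called. An unadjusted p under 0.05 was found for 1 of them, Scgb3a2, where 14.7% of all tested genes had one. The sums were 357 to 491 in wild type and 368 to 3636 in mutants. The lung gene Scgb3a2 read 4.83, 4.81 and 5.40 in wild type and 9.03, 4.87 and 11.36 in mutants. Its wild-type mean of 5.01 was under the filter, as was that of Sftpc at 6.15. Both were thus tested only through their mutant values. The surfactant gene Sftpc read 9.43 on mutant replicate 3 and 5.80 to 6.53 on the other arrays, and the lung factor Nkx2-1 was below the filter on all arrays. Of 13 skeletal muscle markers 6 were tested and 2 were called lower (Tnni2 and Casq1), where 0.369% of all tested genes were. The other 7, among them Myog, Myod1, Myf5 and Myf6, were below the filter. The sums of the 13 were 11180 to 13743 and 11011 to 11846. Ckm was the brightest of them, with means of 12.92 in wild type and 12.81 in mutants. Whether the signal of these 13 came from skeletal muscle was not tested. Of 11 thymus markers 10 were below the filter, with sums of 273 to 353 and 275 to 292. Of 13 cardiomyocyte markers 0 were called and 3 had an unadjusted p under 0.05, where 14.7% of all tested genes did. The sums of the 13 were 119190 to 122578 and 124774 to 126960. The part of the epicardial, lung and muscle markers in the members' values was not tested.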

How the data were processed

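Total RNA of whole hearts (3 µg per sample, biotin-labelled, 1-colour Affymetrix arrays, per the labels' protocols) gave 1 array for each of 6 samples. Per the values, the authors deposited intensity on a linear scale that was already common to all arrays (medians within 0.12 log2 units). How it was normalized, and with which software, is not given in the sources used here. The number of arrays limits the precision, and no detection call was used.

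Intensities were floored at 1 and log2-transformed. Of 45101 probe sets 64 were controls, 34945 had 1 symbol in the platform annotation, 932 several and 9160 none; only the first were used. Each gene took its probe set with the highest mean, and 11113 of 18193 genes had a mean above the median of all non-control probe sets (6.30). The genotype fit used limma 3.58.1 under R 4.3.3 (lmFit, eBayes with intensity trend, two-sided, Benjamini-Hochberg over all genes, called under 0.05). Differences are mutant minus wild type. All 27 members are named. Of each further list of neuronal, glial or guidance genes the rule named the 2 with the smallest p, since none was called. Other genes of these lists were named after their values were seen. Members and lists were chosen with earlier results of these data known. A check on simulated data, with normal noise of each gene's own spread, preceded the fit. It called 45.5% of added changes of 0.5 log2 units and 89.5% of those of 1. Changes near 0.5 could thus be missed. Alternatives covered normalization, offset, filter, probe sets, variance model, array weights, the replicate block and single arrays. Figures used matplotlib 3.10.9.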

Additional observations from a re-analysis of the deposited data

How the results depend on the processing

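The count of called members moved with few settings. It was 0 of 9, and 1 (Uchl1) with quantile normalization (adjusted p = 0.0478, 206 genes called in all), with array quality weights (adjusted p = 0.0104, 429 genes) and with the replicate number as a block (adjusted p = 0.0265, 234 genes); it was 0 to 4 with an array left out. Correlations of the deviations of same-numbered arrays were -0.06, 0.13 and 0.41. Those of the other wild-type and mutant pairs ran from -0.32 to 0.25. Whether arrays of the same number share a litter or batch is not given by the labels and was not tested. Over all settings Uchl1 stayed between 0.52 and 0.76 log2 units (adjusted p = 0.0104 to 0.269), Sema3a between 0.29 and 0.78, Gap43 between 0.26 and 0.52, Ddc between -0.38 and -0.07, Ngfr between -0.48 and -0.20 and Erbb3 between 0.15 and 0.34. Dbh turned positive with quantile normalization (0.035) and median centring (0.039) and ran from -0.16 to 0.17 with an array left out. Fabp7 turned positive with median centring (0.014) and ran from -0.18 to 0.10, and Sox10 from -0.31 to 0.15, with an array left out; the cause was not tested.

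The count of called genes was 196, and 81 with no filter (more genes tested), 119 without the intensity trend, 429 with array quality weights and 37 to 451 with an array left out, lowest without mutant replicate 1 and highest without wild-type replicate 1. The median of the neuronal members was 0.021 with no filter, when all 20 enter, and 0.35 with the filter at the 60th percentile, when fewer do; with an array left out it ran from 0.13 to 0.22, and that of the glial members from -0.20 to 0.10. Levels under the filter limit what can be said of 18 members.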
